A study of Mus musculus with 2 samples.

Results

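The enzymes described here carry pyruvate and fatty acids into the mitochondrion and oxidise them. The 35 genes were chosen by symbol, as enzymes of these pathways and with earlier results of these data known: 5 for the entry of pyruvate, 15 for the citric acid cycle and 15 for fatty acid oxidation. All 35 were found among the 20862 genes measured on both arrays. RNA came from subcutaneous tumours of Panc02 cells, a mouse pancreatic carcinoma line, grown in C57BL/6 mice. The mice were placed at 3 weeks of age in a standard environment, which is ordinary caging, or in an enriched environment, which offers more stimulation, and they stayed there for 5 weeks after the injection. Each group was 1 pool of RNA from the tumours of 6 mice, hybridised to 1 one-colour array, so every mouse of both groups carried the same cell line and the arrays hold no spread between mice. No test between the housings was possible, and no p-value is given. The values describe these 2 pools.

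In the citric acid cycle the acetyl group of acetyl-CoA is oxidised to carbon dioxide, and the electrons are passed to NAD or to a flavin for the respiratory chain. Acetyl-CoA comes from pyruvate through the pyruvate dehydrogenase complex, or from fatty acids through beta-oxidation, which shortens an acyl chain step by step. Skeletal muscle, heart and brown fat are rich in these enzymes. Several steps have more than 1 enzyme, and the alternatives differ in cofactor, cell compartment or tissue.

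The 2 arrays are called the standard and the enriched pool after the housing. A level is the log2 processed intensity less the array's own 75th percentile, and every difference subtracts the standard pool from the enriched pool, so a negative value is lower after enriched housing. In the enriched pool 32 of the 35 genes were lower, 23 of them at least 2-fold, and none was at least 2-fold higher. Over all measured genes, 47.7% were lower by any amount, 9.46% were at least 2-fold lower and 5.73% at least 2-fold higher. Many of the enzymes are bright on the arrays, so the same shares were taken over the 4883 genes at or above the lower quartile of the enzymes' mean levels, and they were 43.9%, 9.15% and 4.89%. The median difference was -1.32 for the 35 enzymes, or 2.49-fold lower, against 0.03 for all genes. It was -1.54 for pyruvate entry, where 4 of 5 genes were at least 2-fold lower, -1.43 for the cycle with 10 of 15, and -1.30 for fatty acid oxidation with 9 of 15. The enzymes took 0.869% of the summed probe intensity in the standard pool, against 0.347% in the enriched pool.

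The precision of a single difference can be judged in 2 ways, and neither covers the spread between mice. The scanner software's own error of each spot gave an error of 0.20 to 0.29 for the difference of a probe. Its median was 0.204, equal to its lowest value, so it was nearly the same for most probes. It does not measure the spread between probes. Among the 15 enzymes measured by several probes, the SD between a gene's probes had a median of 0.36. Of 54 probes used, 49 were lower in the enriched pool. The genes nearest to the 2-fold threshold were Dld at -1.11 on the inside, and Mdh1 at -0.98 and Acadm at -0.90 on the outside.

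**Figure D1:**
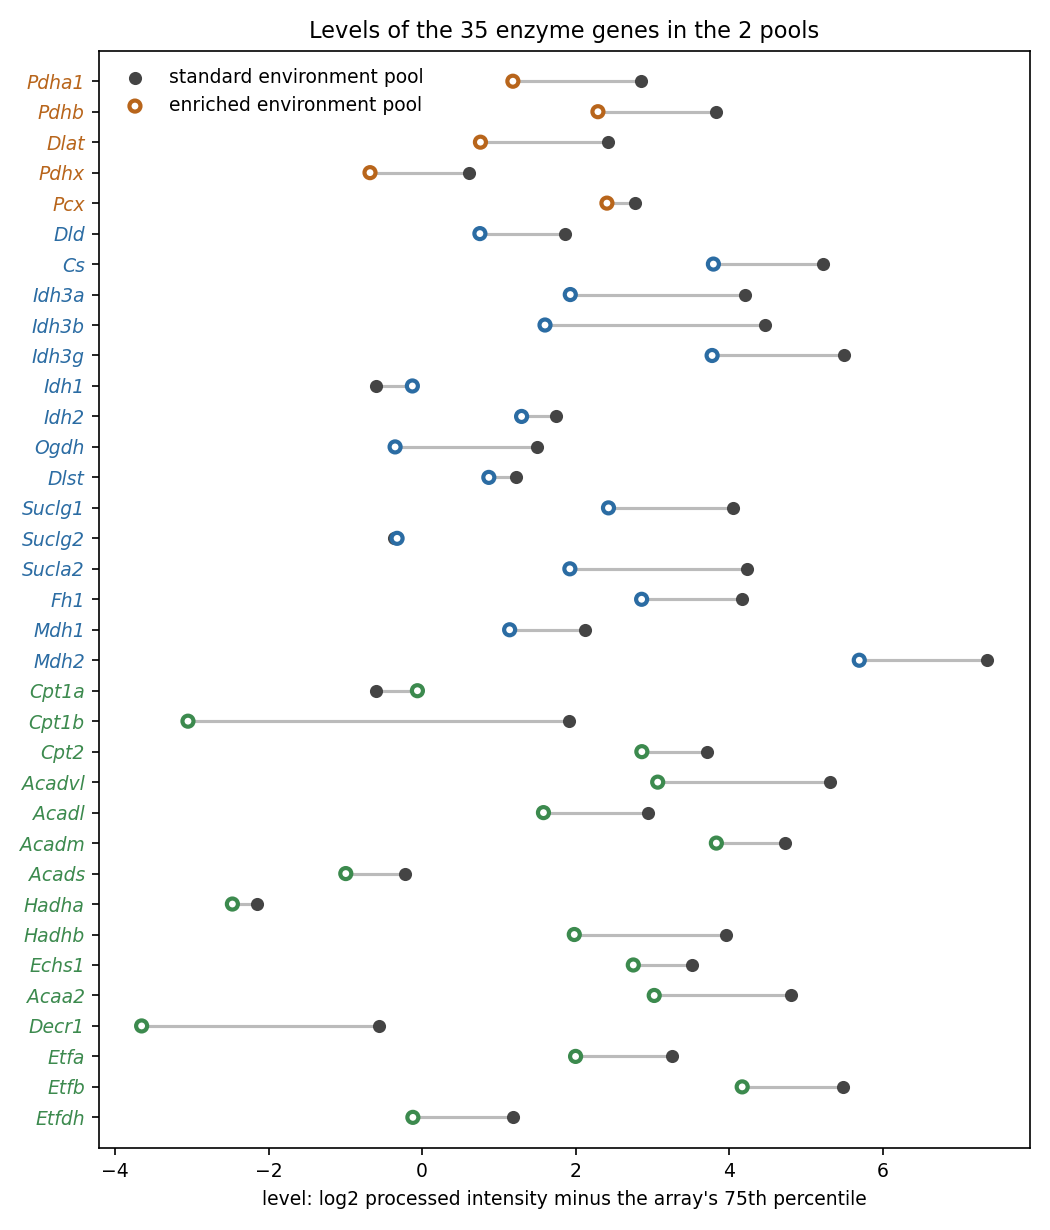
Level of each enzyme gene (log2 processed intensity minus the 75th percentile of its array) in the standard environment pool (filled circles) and the enriched environment pool (open circles), with names and open circles coloured as pyruvate entry (brown), citric acid cycle (blue) and fatty acid oxidation (green). The open circle lies left of the filled one in 32 of 35 genes, and right of it for Idh1, Suclg2 and Cpt1a; levels of different genes come from different probes and are not compared.

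The same tumour pools differed in the tissue markers they held. All 12 carcinoma epithelium markers were well above background in both pools, and their median difference was 1.97. All 25 skeletal muscle markers were also well above background in both pools and had a median difference of -7.92, from -9.11 for Ckmt2 to -3.08 for Tnni2. The muscle list took 5.30% of the summed intensity in the standard pool, against 0.114%. The median difference was -5.91 over 7 brown adipocyte markers, -5.59 over 4 erythroid markers and 1.63 over 9 white adipocyte markers. The part that these markers have in the enzyme values was not tested. In a pool of whole tumours, fewer cells of a type and less RNA per cell cannot be told apart.

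The subunits of the pyruvate dehydrogenase complex were lower together. Pdha1 and Pdhb, the E1 subunits that decarboxylate pyruvate, were at 2.86 and 3.83 under standard housing, and at 1.18 and 2.29 under enriched housing. Their differences were -1.67 (SD between 2 probes 0.40) and -1.54 (SD between 2 probes 0.02). Dlat, the E2 core that hands the acetyl group to coenzyme A, went from 2.42 to 0.76 between the pools, a difference of -1.66. Pdhx, which binds E3 to the core, differed by -1.29, with levels of 0.61 and -0.68. Dld, the E3 subunit that regenerates lipoate, is shared with the oxoglutarate complex and is counted with the cycle here. It differed by -1.11, with its 3 probes between -1.26 and -0.85. The 4 subunits specific to the complex had an SD of 0.18 among themselves, against 1.03 over the 35 enzymes and 0.84 without Cpt1b. The Pdha1 probes gave -1.96 and -1.39 and the Pdhx probes -1.48 and -1.10, so that closeness rests on averaging them. With Dld the SD was 0.25. Pcx, pyruvate carboxylase, which makes oxaloacetate from pyruvate instead of acetyl-CoA, differed by -0.37, with levels of 2.78 and 2.41.

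The kinases and phosphatases that set the activity of the complex were also measured. Of the 6 measured, 4 were at least 2-fold lower and none at least 2-fold higher, with a median of -1.21. The shares over all measured genes were 9.46% and 5.73%. The kinases, which switch the complex off, ranged from Pdk4 at -5.91 and Pdk2 at -2.89 to Pdk1 at -0.96 and Pdk3 at 0.35. Pdpr, a regulatory subunit of the phosphatase that switches the complex on, differed by -1.36, and the catalytic phosphatase gene Pdp1 by -1.06. Mpc1 and Mpc2, which form the carrier that brings pyruvate into the mitochondrion, differed by -1.80 and -2.04. The carriers and Pdp1 were singled out after their values were seen.

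Cs, citrate synthase, opens the cycle by joining acetyl-CoA to oxaloacetate. Its 2 probes were at 3.87 and 6.57 in the standard pool against 2.76 and 4.83 in the enriched, which gave a mean difference of -1.43 (SD between probes 0.46). The probes gave -1.10 and -1.75, both past 2-fold.

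Isocitrate is oxidised by 2 kinds of enzyme, and these did not behave alike. The NAD-dependent enzyme works in the cycle and is built from the subunits of Idh3a, Idh3b and Idh3g, while Idh1 and Idh2 encode separate NADP-dependent enzymes of the cytosol and of the mitochondrion, which make NADPH. Idh3a was at 4.21 under standard housing and 1.93 under enriched, a difference of -2.28 or 4.85-fold. Idh3b was at 4.46 and at 1.60, a difference of -2.86 or 7.28-fold. Idh3g was at 5.50 and at 3.78, a difference of -1.72 or 3.30-fold. All 3 subunits of the NAD-dependent enzyme were therefore past 2-fold. Idh2 was at 1.74 and at 1.30, a difference of -0.45, and Idh1 was at -0.60 and at -0.13, a difference of 0.47. Neither NADP-dependent gene reached a 2-fold difference, and they lay on opposite sides of 0.

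The gap between the median of the 3 NAD-dependent genes and that of the 2 NADP-dependent genes was -2.29 (scanner error 0.19), or 4.89-fold. A common scaling of an array cancels in such a gap. In each of the 6 pairings of an NAD-dependent with an NADP-dependent gene the former was lower, with gaps from -1.27 for Idh3g against Idh2 to -3.33 for Idh3b against Idh1. Compartment does not divide them the same way: Idh2, like Idh3, is mitochondrial, and the gap between Idh2 and Idh1 was -0.92. Within the NAD-dependent enzyme, Idh3b was lower than Idh3g, with a gap of -1.14 (scanner error 0.29). Each of these 5 genes was measured by 1 probe. On the mm7 build of the array design, the Idh3b probe lies in its transcript on chromosome 2 from 130021893 to 130021952, and the Idh2 probe on chromosome 7 from 75965493 to 75965552.

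Across all 35 enzymes the division by cofactor was less even. The 7 NAD-linked genes had a median of -1.67 and the 7 flavin-linked genes one of -1.30, and the 18 genes with neither these cofactors nor NADP lay between, at -1.48. The 3 NADP-linked genes had a median of -0.45, but they ranged from 0.47 for Idh1 to -3.09 for Decr1, the dienoyl-CoA reductase of fatty acid oxidation. Dependence on NADP thus went with a small difference in the isocitrate dehydrogenases and not in Decr1.

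The oxoglutarate dehydrogenase complex turns oxoglutarate into succinyl-CoA. Ogdh, its E1 subunit, had 2 probes, at 1.54 and 1.45 for the standard pool, -0.28 and -0.43 for the enriched one, with a mean difference of -1.85 (SD between probes 0.04). Dlst, its E2 subunit, differed by -0.35, but its 3 probes did not agree. The 2 probes that the array design ties to the RefSeq transcript differed by -0.90 and -0.75, and the third, designed to a cDNA clone, by 0.60. Without that probe Dlst was at -0.83. Whichever probe was read, Ogdh was lower than Dlst, with the smallest gap at -0.91.

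Succinyl-CoA ligase releases the energy of succinyl-CoA as ATP or GTP, depending on which beta subunit joins the shared alpha subunit. Suclg1, the alpha subunit, was at 4.05 with standard and 2.43 with enriched housing, a difference of -1.62. Sucla2, the ATP-forming beta subunit, had 2 probes, at 3.57 and 4.89 in the standard pool against 0.89 and 2.96 in the enriched. Its mean difference was -2.30 (SD between probes 0.53), or 4.93-fold. Suclg2, the GTP-forming beta subunit, was at a mean level of -0.36 and -0.33 over 2 probes, of which 1 was higher by 0.29 and 1 differed by -0.22, with a mean difference of 0.04. That sign turned to -0.08 with loess scaling. The 2 beta subunits were thus separated by -2.34 (scanner error 0.29), and all 4 pairings of their probes put Sucla2 lower, with gaps from -1.71 to -2.97. Another Sucla2 probe, designed to a cDNA clone, was not well above background on either array. With it included the gap was -1.32 in place of -2.34.

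The last steps of the cycle lay near the middle of the 35. Fh1, fumarase, was at 4.16 and at 2.86, a difference of -1.30. Mdh2, the mitochondrial malate dehydrogenase that closes the cycle, was at 7.37 under standard housing and 5.69 under enriched, a difference of -1.67. Mdh1, the cytosolic enzyme of the malate-aspartate shuttle, differed by -0.98 over 3 probes, at -1.12, -1.29 and -0.52. The gap between Mdh2 and Mdh1 was -0.69 (scanner error 0.29), and -0.47 when only probes tied to RefSeq transcripts were read, with Mdh1 then at -1.20 and past 2-fold. Sdha and Sdhb, the subunits of succinate dehydrogenase that hold its flavin and iron-sulfur centres, lie between these steps and differed by -1.67 and -2.35. Its membrane subunits Sdhc and Sdhd differed by -0.75 and -1.12. Succinate dehydrogenase is not among the 35, and it was added after its values were seen.

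**Figure D2:**
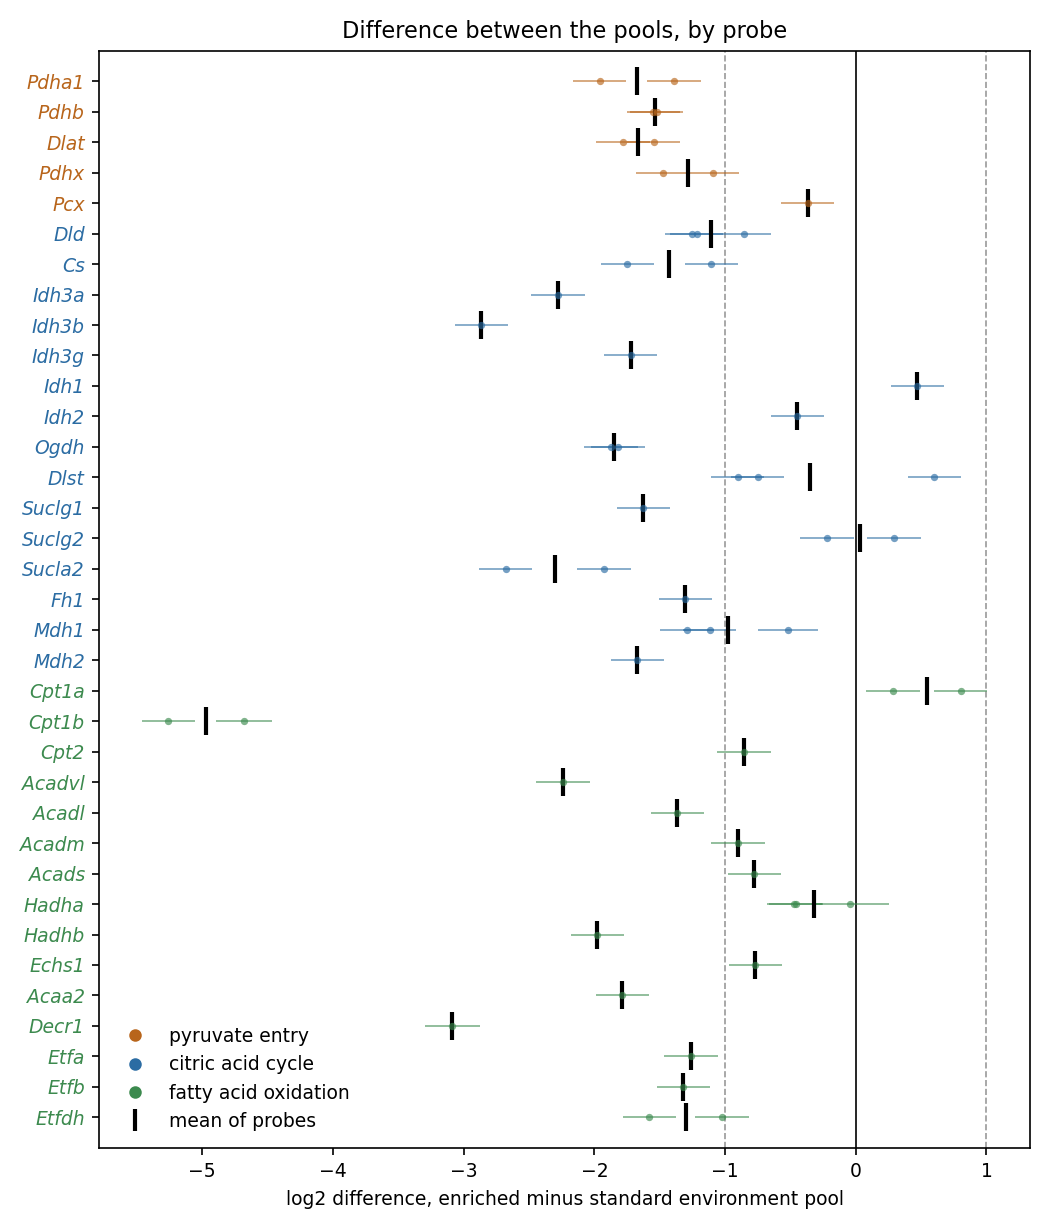
Log2 difference between the pools (enriched minus standard) for each enzyme gene: dots are single probes with the scanner software's error, black bars the mean of a gene's probes, and dashed lines mark 2-fold. Means run from -4.97 for Cpt1b to 0.55 for Cpt1a, 23 of 35 lie left of the lower dashed line, and the probes of Dlst lie on both sides of 0.

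Fatty acids enter the mitochondrion as carnitine esters, and the 2 forms of the first transferase parted most among the 35. Cpt1b, the outer membrane carnitine palmitoyltransferase of muscle and brown fat, had probes at 2.88 and 0.95 under standard housing and -2.38 and -3.73 under enriched housing. Its mean difference was -4.97 (SD between probes 0.41), or 31.3-fold, at percentile 0.662 of all measured genes. With normexp background correction it was -4.32, a fold more than 1.5 times smaller. Cpt1a, the form of liver and most other tissues, had probes at 0.89 and -2.10 for the standard pool, 1.69 and -1.81 for the enriched one. Its mean difference was 0.55 (SD between probes 0.36). The brighter Cpt1a probe was spotted several times, with an SD of 0.06 between spots. The gap between Cpt1b and Cpt1a was -5.51, from -6.06 to -4.97 over their 4 probe pairings. Cpt1c, a neuronal form outside the 35, differed by -0.97, and Cpt2, the inner membrane transferase that hands the acyl group back to coenzyme A, by -0.85, with levels of 3.72 and 2.86. The skeletal muscle and brown adipocyte markers, tissues that use Cpt1b, had medians of -7.92 and -5.91 in the same pools, and their part in this value was not tested. Without Cpt1b the median of the remaining 34 enzymes was -1.31.

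The acyl-CoA dehydrogenases, flavin enzymes that open each round of beta-oxidation, differ in the chain length they prefer. Acadvl, for very long chains, was at 5.31 with standard and 3.07 with enriched housing, a difference of -2.24 or 4.72-fold. Acadl, for long chains, was at 2.95 and at 1.58, a difference of -1.36. Acadm, for medium chains, was at 4.73 and at 3.83, a difference of -0.90, and Acads, for short chains, at -0.22 and at -0.99, a difference of -0.78. Each of the 4 was measured by 1 probe. The step from Acadvl to Acadl was -0.87 and that from Acadl to Acadm -0.46 (scanner error 0.29 each). Acadm and Acads, -0.12 apart, were not separated beyond that error, and their order turned with quantile normalization, to -0.70 for Acadm and -0.78 for Acads, and in the authors' deposited table, to -0.66 and -0.78. With 1 probe per gene, these gaps could not be set against the spread between probes. Its SD had a median of 0.36 in the enzymes with several probes. The larger differences of the very long and long chain genes against Acadm and Acads were not tested.

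The later steps of beta-oxidation were uneven. Hadhb, the thiolase subunit of the trifunctional protein that acts on long chains, was at 3.96 and at 1.98, a difference of -1.98. Hadha, which carries the hydratase and dehydrogenase activities of the same protein, differed by -0.32 over 3 probes, at -0.46, -0.04 and -0.47. The subunits of 1 protein were therefore -1.65 apart (scanner error 0.31), and each of the 3 pairings of their probes put Hadhb lower, with the smallest gap at -1.51. Of the Hadha probes, 1 is tied to the RefSeq transcript, and this probe gave -0.46 from a standard level of 0.77. The others, designed to cDNA clones, were dim, at -4.85 and -2.37 in the standard pool. Acaa2, the matrix thiolase for shorter chains, was at 4.81 and at 3.02, a difference of -1.79 on a probe spotted several times with an SD of 0.03. Echs1, the short-chain enoyl-CoA hydratase, was at 3.52 and at 2.75, a difference of -0.77. Hadh, the matrix dehydrogenase outside the 35 that follows Echs1, differed by -1.02.

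Decr1, which removes double bonds that block the breakdown of unsaturated fatty acids, was at -0.57 in the standard pool against -3.65 in the enriched. The difference was -3.09, or 8.49-fold, and -2.44 with normexp background correction. A second Decr1 probe was well above background in the standard environment pool alone. It was measured as 10.0-fold brighter there (scanner error of the log2 difference 0.405), a ratio that rests on its dim enriched value and is not a lower limit. Electrons from the acyl-CoA dehydrogenases pass through the electron transfer flavoprotein and its dehydrogenase to ubiquinone. Etfb, a flavoprotein subunit, was at 5.49 and at 4.17, a difference of -1.32. Its partner subunit Etfa differed by -1.26, or 2.40-fold. Etfdh, the dehydrogenase, differed by -1.30 (SD between 2 probes 0.39). The means of the 3 genes of this relay lay close together, but the Etfdh probes gave -1.58 and -1.02, so that closeness rests on averaging them.

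**Figure D3:**
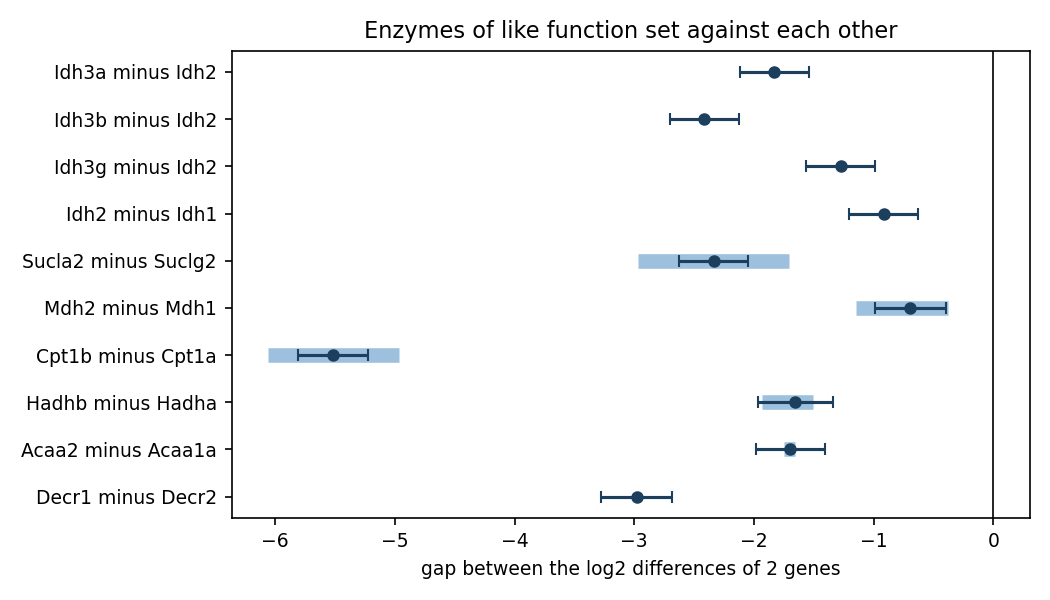
Gap between the log2 differences (enriched minus standard) of pairs of enzymes with like function: points are gene means with the scanner software's error, and pale bars span all pairings of their probes. The gene with the lower difference is placed first in each of the 10 pairs, so the sign is set by that order; the size runs from -5.51 for Cpt1b against Cpt1a to -0.69 for Mdh2 against Mdh1.

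Peroxisomes hold their own beta-oxidation enzymes, and these were compared with their mitochondrial counterparts. Over all measured genes, 9.46% were at least 2-fold lower and 5.73% at least 2-fold higher. Of 14 peroxisomal genes, 3 were at least 2-fold lower, and the median was -0.22. Among these 3 were Amacr, a racemase for branched chains, at -1.05 and Ehhadh, the bifunctional enzyme, at -1.05. Decr2, the peroxisomal dienoyl-CoA reductase, was at 1.16 and at 1.06, a difference of -0.10, and its gap to Decr1 was -2.98 (scanner error 0.29). Acaa1a, a peroxisomal thiolase, differed by -0.09, and the gap of Acaa2 to it was -1.70. Beyond the 35, 11 of 26 further fatty acid oxidation genes were at least 2-fold lower and none at least 2-fold higher, with a median of -0.82. These 11 were led by Ppara, the receptor that drives transcription of lipid catabolism genes, at -3.78, and Acacb, which makes the malonyl-CoA that inhibits the outer transferase, at -3.41. Of 25 further cycle and anaplerotic genes, 11 were at least 2-fold lower, led by Got1, the cytosolic aspartate aminotransferase, at -3.23 and the NADP-dependent malic enzyme gene Me3 at -3.13. The dicarboxylate carrier Slc25a10, at 1.37, was the 1 gene of that list at least 2-fold higher.

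**Figure D4:**
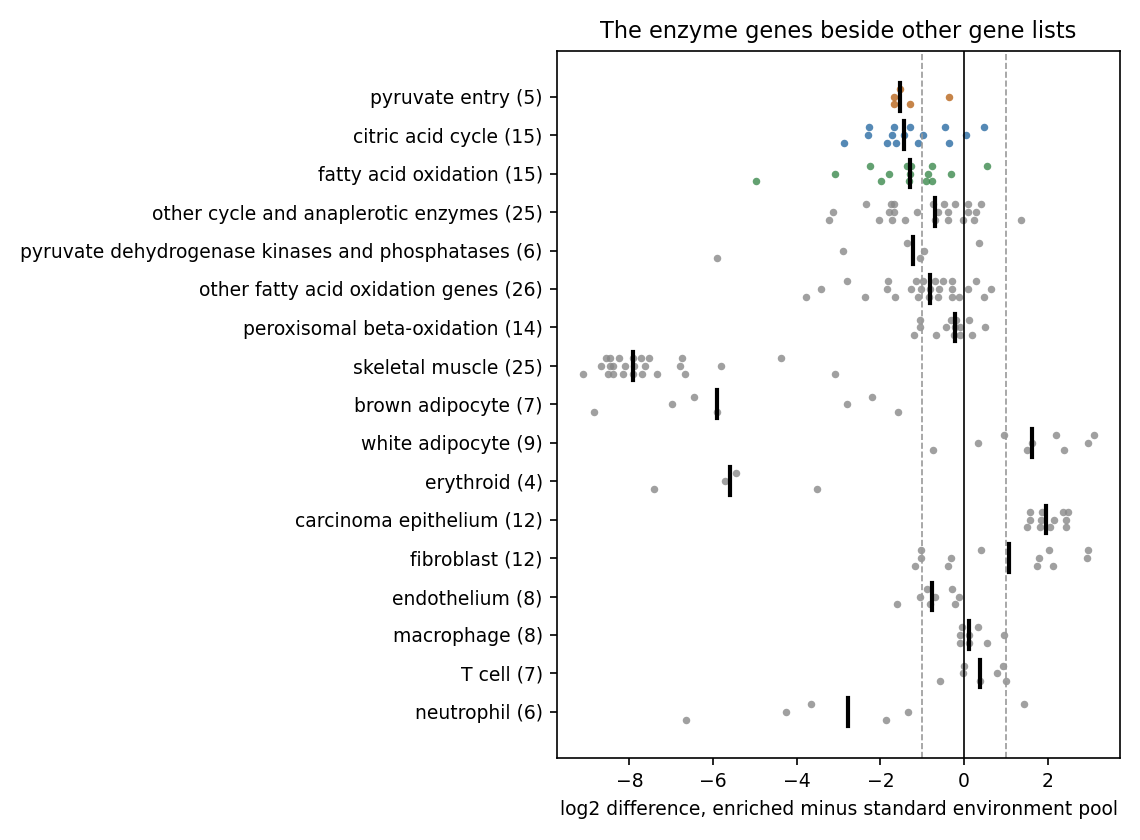
Log2 difference (enriched minus standard) of every measured gene in the 3 groups of enzymes (coloured) and in 14 further lists (grey), with the number of genes in brackets, the median as a black bar and dashed lines at 2-fold. The enzyme medians of -1.54, -1.43 and -1.30 lie between those of skeletal muscle, -7.92, and carcinoma epithelium, 1.97, and the peroxisomal median is -0.22.

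The sequence upstream of the start of transcription was compared for enzymes that parted. Windows of 250 bases were taken from RefSeq on build GRCm38.p6 for 31 of the 35 genes; Idh3a, Cpt1b, Acaa2 and Decr1 had no entry. The windows of 3 contrasts are shown, 5′ to 3′ on the strand of the gene, because the first gene of each pair had the larger difference: Idh3b (chr2:130284452-130284701, minus strand) and Idh2 (chr7:80115351-80115600, minus strand), Sucla2 (chr14:73552536-73552785, plus strand) and Suclg2 (chr6:95718847-95719096, minus strand), and Acadvl (chr11:70015429-70015678, minus strand) and Acads (chr5:115119347-115119596, minus strand). Capitals mark the GC box GGGCGG and the CCAAT box, searched on both strands.
Idh3b: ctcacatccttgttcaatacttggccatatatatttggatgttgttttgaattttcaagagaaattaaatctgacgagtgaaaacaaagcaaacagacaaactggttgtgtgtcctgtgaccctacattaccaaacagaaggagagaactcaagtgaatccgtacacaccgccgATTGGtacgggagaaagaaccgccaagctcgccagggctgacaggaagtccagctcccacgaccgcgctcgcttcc
Idh2: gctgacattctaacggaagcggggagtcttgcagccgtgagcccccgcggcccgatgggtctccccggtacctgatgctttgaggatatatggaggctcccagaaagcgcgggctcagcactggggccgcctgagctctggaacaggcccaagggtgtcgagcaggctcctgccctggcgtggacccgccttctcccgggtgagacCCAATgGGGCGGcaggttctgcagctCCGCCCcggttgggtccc
Sucla2: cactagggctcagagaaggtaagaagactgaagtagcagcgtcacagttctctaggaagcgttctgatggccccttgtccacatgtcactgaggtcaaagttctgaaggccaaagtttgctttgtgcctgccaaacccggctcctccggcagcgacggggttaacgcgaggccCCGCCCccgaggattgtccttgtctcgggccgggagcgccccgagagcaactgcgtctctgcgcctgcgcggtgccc
Suclg2: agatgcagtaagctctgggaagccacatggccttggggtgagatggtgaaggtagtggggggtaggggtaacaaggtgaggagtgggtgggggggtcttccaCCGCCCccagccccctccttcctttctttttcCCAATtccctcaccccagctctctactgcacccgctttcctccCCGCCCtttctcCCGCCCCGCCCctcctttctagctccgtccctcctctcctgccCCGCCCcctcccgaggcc
Acadvl: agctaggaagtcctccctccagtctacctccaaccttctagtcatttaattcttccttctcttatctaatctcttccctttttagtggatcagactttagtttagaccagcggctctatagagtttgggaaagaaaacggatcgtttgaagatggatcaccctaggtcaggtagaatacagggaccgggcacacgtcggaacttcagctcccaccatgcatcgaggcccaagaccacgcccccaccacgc
Acads: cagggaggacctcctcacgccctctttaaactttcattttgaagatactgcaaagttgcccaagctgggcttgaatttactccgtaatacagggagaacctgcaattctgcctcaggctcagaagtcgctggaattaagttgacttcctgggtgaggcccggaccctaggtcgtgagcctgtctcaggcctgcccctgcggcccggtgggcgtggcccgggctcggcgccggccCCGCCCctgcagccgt

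The GC box occurred in the window of the gene with the smaller difference in all 3 pairs, with 2 matches for Idh2, 5 for Suclg2 and 1 for Acads, of which some overlap in Suclg2. Of the genes with the larger difference, Sucla2 had 1 match, and Idh3b and Acadvl had none. Other pairs set against each other above did not part in this way: Ogdh and Dlst, Mdh2 and Mdh1, and Hadhb and Hadha all had a GC box. Over the 31 genes, 21 windows held a GC box, or 67.7%, against 57.9% of the 11663 measured genes with a window. It was found in 10 of the 19 enzymes that were at least 2-fold lower and in 11 of the other 12, and over all measured genes in 50.6% of those at least 2-fold lower and in 58.7% of the rest. The CCAAT box was in 15 of the 31 windows (39.9% of measured genes), the E-box CACGTG in 2 (9.21%), and the TATA box TATAAA in none (10.0%). The element TCAAGGTCA bound by oestrogen-related receptors was in none of the 31 and in 0.257% of measured genes. Where a gene had several windows, any match counted. A match is a description of the letters only.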

How the data were processed

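The authors deposited scanner output whose processed intensity is linear. The submitters' processing notes name Agilent Feature Extraction 10.7.1.1. Spatial and multiplicative detrending were switched on and global background correction off, per the file headers, and such steps can alter dim spots. Both arrays lay on 1 slide. A second deposited table of log2 values, with centring and scaling not given in the sources used here, served as an alternative. Its 30319 probes were those measured here on both arrays, and its columns correlated with the log2 scanner values at r = 1.00. Its medians were 8.54 (standard) and 8.56 (enriched).

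Log2 intensity minus the 75th percentile of the array was used, which was 753 for standard and 984 for enriched housing. The 1639 control spots and the population outliers were left out, spots were averaged per probe, and probes well above background on both arrays were averaged per gene. Of 43379 other spots, 77.2% and 77.4% were well above background, and 0 were saturated. Of 41174 probes, 22951 were named through a RefSeq accession. Scaling and averaging were checked on simulated data made from the standard array. Background and outlier flags were copied from that array, so differences between arrays in these were not checked, nor were the alternatives. With 1 array per group, called means at least 2-fold, and precision is limited by the number of arrays. The enzymes and lists were chosen with earlier results of these data known, and all 35 enzymes are accounted for; of other lists, up to 3 genes with the largest difference and isozymes are named, except for some not reported here. Limma 3.58.1 in R 4.3.3 gave normexp (offset 50), quantile and loess alternatives.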

Additional observations from a re-analysis of the deposited data

How the results depend on the processing

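Under 10 planned processings and 1 added after the data were seen (probes tied to RefSeq transcripts only), the number of enzymes at least 2-fold lower stayed at 23 or 24, the same 23 genes in each, 0 were at least 2-fold higher, and the same 32 were lower. The median of the 35 stayed between -1.40 and -1.25. No direction of a 2-fold difference turned, while Suclg2, at 0.04, was at -0.08 with loess scaling and -0.22 with its brightest probe. Of 385 enzyme values under the alternatives, 28 moved by more than 0.17, the median SD between probes of a gene. Many of the 385 had little or no room to move. Taking gene names from the scanner files alone kept the same probes for each enzyme. The 20 enzymes with 1 probe could not change when the brightest probe was read. Every alternative used the same 2 arrays. With normexp background, Cpt1b minus Cpt1a was -4.78 and the muscle median -7.19. Without the filter on dim probes, Suclg2 minus Sucla2 was 1.32 and 3793 of all genes were at least 2-fold lower, in place of 2.34 and 1973. With the brightest probe alone, the cycle median was -1.62, Cpt1b minus Cpt1a -6.06, Suclg2 minus Sucla2 1.71 and Mdh2 minus Mdh1 -0.38. In the authors' deposited log2 table the cycle median was -1.22 and the muscle median -7.72. With RefSeq probes only, Mdh2 minus Mdh1 was -0.47. At 3-fold, 14 enzymes and 979 genes were lower, and at 1.5-fold 28 enzymes and 3788 genes. No paired analysis was possible because each housing has 1 array. Dim probes limit Decr1, whose difference was -2.44 with normexp.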
